A study of Drosophila melanogaster with 12 samples.

Results

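The insect cuticle is a layered extracellular coat that epidermal cells secrete, built of chitin fibres embedded in structural proteins. Most of these proteins belong to the CPR family, named for a conserved chitin-binding stretch, and separate sets are known to be made for larval, pupal and adult cuticle. The Tweedle proteins form another family, in which the Tubby allele of TwdlA changes larval and pupal body shape. Lcp genes were named for larval cuticle, Pcp for pupal cuticle and Acp65Aa for adult cuticle, Edg genes for their dependence on the moulting hormone ecdysone, and the Ccp84A genes for a cuticle gene cluster.

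The cuticle protein genes were taken as all genes with a single-gene probe set whose current or older symbol began with Cpr and a digit, Lcp and a digit, Ccp84, Twdl or Edg, or was Pcp or Acp65Aa. This gave 107 of the 11982 genes named on the array: 67 Cpr, 25 Twdl, 7 Lcp, 3 Ccp84A and 5 of Edg, Pcp and Acp65Aa. Of these, 2 were found through an older symbol, namely Tb, also called TwdlA, and CG34462, also called Cpr66Ca. Only Cpr47Ef and Lcp65Aa had more than 1 probe set, and the one with the highest mean over the arrays was used.

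The study hybridised 12 Affymetrix arrays with RNA of whole male Drosophila melanogaster, 8 pooled flies to an array and 3 arrays to each of 4 groups. F1 males of a methylphenidate-exposed mother and a sucrose-exposed father, and F1 males of parents that both received sucrose, formed the offspring groups. The other groups were males that had themselves received methylphenidate, a stimulant that blocks the dopamine transporter, or sucrose, for 24 hours. All flies are titled wild type; no strain, age, or food of the F1 males themselves is given in the labels, so any difference of age, food or handling between F1 and exposed males cannot be told apart from their generation. The series description names 1 cross for the 6 F1 samples and the sample labels name 2; the labels were followed, and each comparison with an F1 group rests on them. Whether replicates are separate cultures is not in the labels, and the p-values therefore refer to the spread of these samples, which may be technical. Whole-fly RNA cannot separate fewer cells of a type from less RNA per cell.

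Values are log2 signals as deposited, with a floor near 0, and changes of genes near the floor are understated. Within groups, arrays correlated at 0.995 to 0.997 over all probe sets. In F1 males of sucrose-exposed parents, replicate 3 had a median signal of 1.37, where the other 11 arrays had 1.49 to 1.57. GAPDH control probes gave a 3′ signal above the 5′ signal, a measure of RNA quality, by 1.53 ± 0.0225 in F1 males of methylphenidate-exposed mothers, 1.54 ± 0.0439 in F1 males of sucrose-exposed parents, 1.504 ± 0.00299 in methylphenidate-fed males and 1.62 ± 0.0860 in sucrose-fed males (SD, n = 3 each). The files and labels name no batch.

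Most cuticle protein genes lay at the floor in these flies. Of the 107, 71 (66.4%) had a mean under 0.5 over the 12 arrays, against 37.7% of all 18769 probe sets, and 65 were under 0.5 in the mean of each group. Another 7 lay between 0.5 and 1, namely Cpr66Cb, Cpr64Ad, TwdlH, Cpr64Ab, TwdlK, Cpr92A and Cpr12A. The remaining 29 had a mean of 1 or more, comprising 24 Cpr genes, the Tweedle genes Twdlalpha, TwdlT and TwdlP, Lcp65Aa and Acp65Aa. At the floor were 38 of 67 Cpr genes, 20 of 25 Twdl genes, 6 of 7 Lcp genes, 4 of 5 of Edg, Pcp and Acp65Aa, and 3 of 3 Ccp84A genes. Signals of different probe sets are not comparable as transcript amounts, so these counts describe the probe sets.

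The highest mean belonged to Cpr49Ae, at 7.64, followed by Cpr65Au, Cpr67B, Cpr62Bb, Cpr49Ab, Cpr51A, Cpr92F, Cpr100A, Cpr47Ef, Cpr67Fb, Cpr72Ec and Acp65Aa, at 2.92. Lcp65Aa was the brightest Lcp gene at 2.82 and Twdlalpha the brightest Tweedle gene at 2.14. The brightest Ccp84A gene, Ccp84Ae, averaged 0.50 and was at the floor.

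Between F1 males and exposed males of the matching treatment, most cuticle protein genes did not pass the threshold, and of those that passed, more were higher than lower in F1 males. F1 males of methylphenidate-exposed mothers against methylphenidate-fed males, called the methylphenidate pair, had 15 higher and 2 lower of 107, at an adjusted p under 0.05 in limma with Benjamini-Hochberg adjustment over 18769 probe sets, the threshold used throughout. Over all probe sets tested, 8.52% passed in that comparison, 4.76% higher and 3.76% lower. F1 males of sucrose-exposed parents against sucrose-fed males, called the sucrose pair, had 18 higher and 3 lower of 107, where 20.5% of all probe sets passed, 6.33% higher and 14.2% lower. The median log2 change of the 107 genes was 0.059 in the methylphenidate pair, where it was -0.016 over all probe sets, and 0.030 in the sucrose pair, where it was -0.031 over all probe sets.

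Most of the genes that passed had a mean of 1 or more; 1 in the methylphenidate pair and 3 in the sucrose pair had a lower mean. Of the 29 genes with a mean of 1 or more, 14 were higher in the methylphenidate pair and 16 in the sucrose pair. Among all probe sets with a mean of 1 or more, 8.04% were higher in the methylphenidate pair and 10.9% in the sucrose pair. The median log2 change of these 29 genes was 0.38 in the methylphenidate pair and 0.40 in the sucrose pair.

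The pairs share no array, and 14 of the 107 genes were higher in both. They were 93.3% of the 15 higher in the methylphenidate pair and 77.8% of the 18 higher in the sucrose pair. Over all 18769 probe sets, 519 (2.77%) were higher in both, out of 894 higher in the methylphenidate pair and 1188 in the sucrose pair. The 14 were Acp65Aa and the Cpr genes Cpr47Ea, Cpr47Ee, Cpr49Ab, Cpr49Ac, Cpr49Ae, Cpr51A, Cpr62Bb, Cpr62Bc, Cpr76Bd, Cpr92F, Cpr97Ea, Cpr97Eb and Cpr100A. For each of the 14, the 6 F1 arrays were above the 6 arrays of exposed males. The 14 were picked by their calls on these same arrays, so this separation is not separate evidence. How many other probe sets were separated in this way was not counted. Their fold changes ran from 1.34 to 14.4 in the methylphenidate pair and from 1.30 to 6.46 in the sucrose pair. The shared set depended on the settings. With the GAPDH measure as a covariate, 9 members were higher in the sucrose pair, so at most 9 of the 14 were then higher in both. Cpr47Ee, Cpr49Ac and Cpr97Ea were among those that no longer passed, and Cpr47Ee missed the threshold of the sucrose pair in 4 alternatives.

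**Figure D1:**
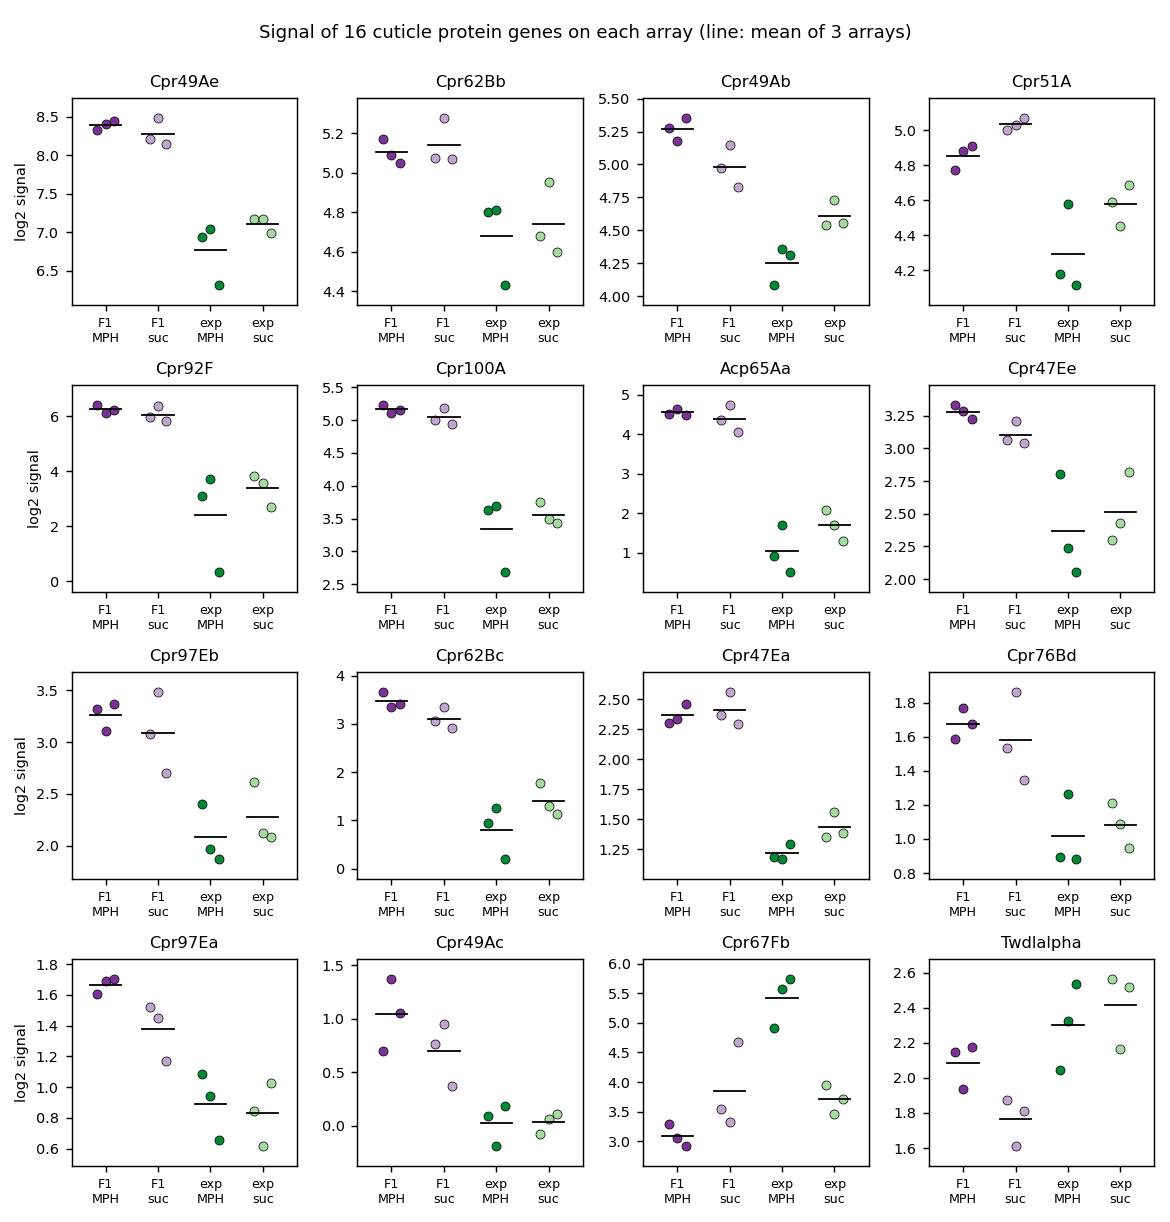
Log2 signal (y axis, own scale per gene) on each array for the 14 genes higher in both F1 against exposed-male comparisons, and for Cpr67Fb and Twdlalpha. Points are arrays, the line is the mean of 3, and groups run from F1 males of methylphenidate-exposed mothers (F1 MPH) and of sucrose-exposed parents (F1 suc) to methylphenidate-fed (exp MPH) and sucrose-fed exposed males (exp suc). For the 14 genes, picked by their calls on these same arrays, all F1 points lie above all points of exposed males.

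Acp65Aa, the adult cuticle protein gene, had log2 signals of 4.51, 4.65 and 4.49 in F1 males of methylphenidate-exposed mothers and 4.36, 4.74 and 4.04 in F1 males of sucrose-exposed parents, against 0.92, 1.70 and 0.52 in methylphenidate-fed males and 2.07, 1.71 and 1.29 in sucrose-fed males. All 6 F1 arrays were above 4 and all 6 arrays of exposed males were below 2.1. The log2 change was 3.50 ± 0.25 in the methylphenidate pair (SE; 11.3-fold; adjusted p = 1.1e-06, limma) and 2.69 ± 0.25 in the sucrose pair (6.46-fold; adjusted p = 4.6e-05). Its neighbour on the chromosome, Lcp65Aa, named for larval cuticle, was at -0.02 in the methylphenidate pair (adjusted p = 0.937) and 0.05 in the sucrose pair (adjusted p = 0.839).

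Cpr92F, a CPR gene, had signals of 6.42, 6.11 and 6.22 in F1 males of methylphenidate-exposed mothers and 5.97, 6.39 and 5.82 in F1 males of sucrose-exposed parents, against 3.12, 3.73 and 0.36 in methylphenidate-fed males and 3.84, 3.59 and 2.71 in sucrose-fed males. The F1 arrays lay close together, while replicate 3 of the methylphenidate-fed males stood far below the other arrays of its group. The log2 change was 3.85 ± 0.60 in the methylphenidate pair (14.4-fold; adjusted p = 0.000853, limma) and 2.68 ± 0.60 in the sucrose pair (6.41-fold; adjusted p = 0.00581). Without replicate 3 of the methylphenidate-fed males, the change of Cpr92F in the methylphenidate pair was 2.83 (adjusted p = 3.7e-05).

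Cpr62Bc had signals of 3.66, 3.35 and 3.41 in F1 males of methylphenidate-exposed mothers and 3.05, 3.35 and 2.91 in F1 males of sucrose-exposed parents, against 0.95, 1.26 and 0.21 in methylphenidate-fed males and 1.77, 1.30 and 1.14 in sucrose-fed males. No F1 array overlapped the exposed males, whose lowest array was again methylphenidate replicate 3. The change was 2.67 ± 0.22 in the methylphenidate pair (6.36-fold; adjusted p = 4.0e-06, limma) and 1.70 ± 0.22 in the sucrose pair (3.24-fold; adjusted p = 0.000421).

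Cpr100A had signals of 5.23, 5.12 and 5.16 in F1 males of methylphenidate-exposed mothers and 5.001, 5.19 and 4.93 in F1 males of sucrose-exposed parents, against 3.62, 3.69 and 2.69 in methylphenidate-fed males and 3.75, 3.49 and 3.43 in sucrose-fed males. The gap between the lowest F1 array and the highest array of exposed males was more than 1 log2 unit. The change was 1.84 ± 0.19 in the methylphenidate pair (3.57-fold; adjusted p = 3.9e-05, limma) and 1.48 ± 0.19 in the sucrose pair (2.80-fold; adjusted p = 0.000426).

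Cpr49Ae, the brightest member, had signals of 8.33, 8.41 and 8.45 in F1 males of methylphenidate-exposed mothers and 8.22, 8.49 and 8.14 in F1 males of sucrose-exposed parents, against 6.94, 7.04 and 6.32 in methylphenidate-fed males and 7.17, 7.18 and 6.99 in sucrose-fed males. Its F1 arrays were all above 8 and its exposed-male arrays all below 7.2. The change was 1.63 ± 0.15 in the methylphenidate pair (3.09-fold; adjusted p = 1.1e-05, limma) and 1.17 ± 0.15 in the sucrose pair (2.25-fold; adjusted p = 0.000356).

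Cpr47Ea was nearer the floor and had the smallest SE of the 6 genes described so far. Its signals were 2.30, 2.34 and 2.46 in F1 males of methylphenidate-exposed mothers and 2.37, 2.56 and 2.29 in F1 males of sucrose-exposed parents, against 1.18, 1.17 and 1.29 in methylphenidate-fed males and 1.35, 1.56 and 1.39 in sucrose-fed males. The change was 1.15 ± 0.09 in the methylphenidate pair (2.22-fold; adjusted p = 1.7e-06, limma) and 0.98 ± 0.09 in the sucrose pair (1.97-fold; adjusted p = 2.7e-05).

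The other 8 of the 14 genes were Cpr47Ee, Cpr49Ab, Cpr49Ac, Cpr51A, Cpr62Bb, Cpr76Bd, Cpr97Ea and Cpr97Eb. In the methylphenidate pair Cpr97Eb was higher by 1.18, its neighbour Cpr97Ea by 0.77, Cpr49Ab by 1.02, Cpr47Ee by 0.91, Cpr76Bd by 0.66, Cpr51A by 0.56 and Cpr62Bb by 0.42. In the sucrose pair Cpr97Eb was higher by 0.81, Cpr97Ea by 0.55, Cpr49Ab by 0.37, Cpr47Ee by 0.59, Cpr76Bd by 0.50, Cpr51A by 0.46 and Cpr62Bb by 0.40. For these 7 genes the 6 F1 arrays also lay above the 6 arrays of exposed males. They too were picked by their calls on these same arrays, so this is not separate evidence. Cpr49Ac, with a mean under 0.5, was at the floor in exposed males and reached group means of 1.04 in F1 males of methylphenidate-exposed mothers and 0.70 in F1 males of sucrose-exposed parents; its changes of 1.01 in the methylphenidate pair and 0.66 in the sucrose pair are understated for that reason.

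Replicate 3 of the methylphenidate-fed males was the lowest of the 12 arrays for 10 of the 14 genes, although its median over all probe sets was 1.56. The change was larger in the methylphenidate pair than in the sucrose pair for 14 of the 14 genes. These genes were read on the same arrays and are not separate evidence, and the share over all probe sets was not counted. Only for Cpr49Ab did that difference itself pass the threshold; for Acp65Aa it was 0.81 ± 0.36 (adjusted p = 0.292, limma) and for Cpr92F 1.17 ± 0.85 (adjusted p = 0.554). Without replicate 3 of the methylphenidate-fed males, 13 members were higher and 1 was lower in the methylphenidate pair.

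**Figure D2:**
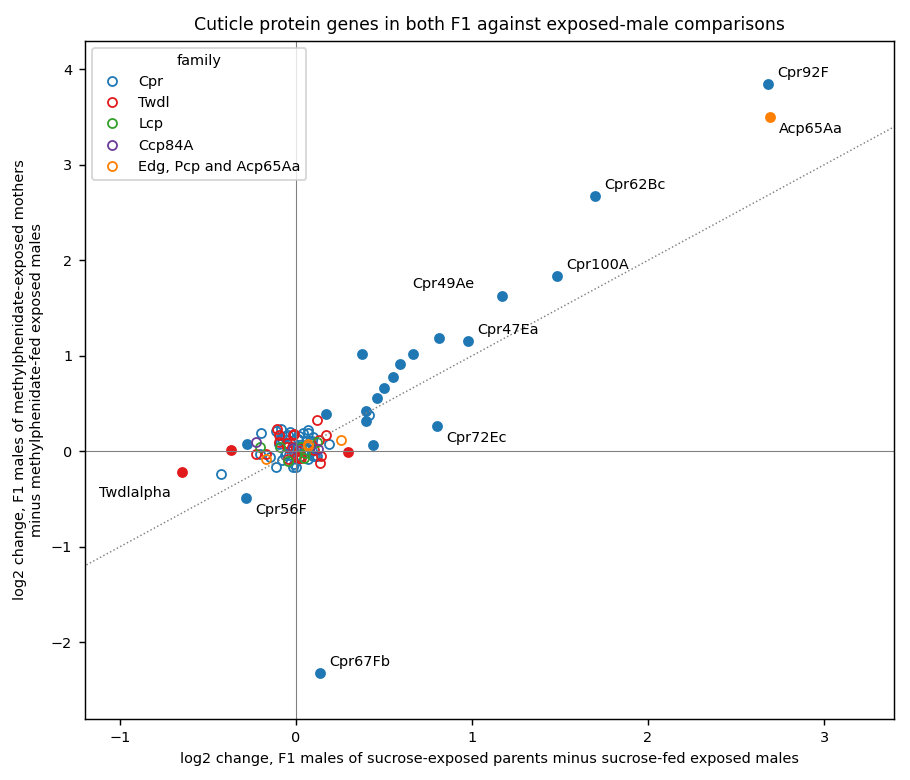
Log2 change of the 107 cuticle protein genes between F1 and exposed males, in the sucrose pair (x axis) and the methylphenidate pair (y axis), coloured by family. Filled points passed the threshold in at least 1 pair, open points in neither, and the dotted line marks equal change. Acp65Aa and Cpr92F lie farthest up and to the right, most genes lie near 0, and Cpr67Fb lies at 0.14 and -2.32.

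Some genes passed in 1 pair only. In the sucrose pair these were Cpr72Ec, a gene of the corneal lens, at 0.80 (adjusted p = 0.0443, limma), Cpr67B at 0.44, Cpr47Ef at 0.40 and TwdlY at 0.30, a Tweedle gene at the floor. In the methylphenidate pair Cpr72Ec was at 0.27, Cpr67B at 0.06, Cpr47Ef at 0.32 and TwdlY at -0.01. Cpr60D passed only in the methylphenidate pair, at 0.39 (adjusted p = 0.0170). None of these 5 genes passed in the test of the difference between the pairs, which is the same contrast as the difference between the drug effects.

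Cpr67B, of the CPR family, had 5.39, 5.33 and 5.34 in F1 males of methylphenidate-exposed mothers and 5.74, 5.58 and 5.71 in F1 males of sucrose-exposed parents, against 5.27, 5.15 and 5.45 in methylphenidate-fed males and 5.01, 5.51 and 5.21 in sucrose-fed males. The F1 males of sucrose-exposed parents were above all other arrays, and the other 3 groups overlapped one another.

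No Tweedle, Lcp or Ccp84A gene was higher in both pairs, and 2 Tweedle genes were lower in the sucrose pair. Only 3 of 25 Tweedle, 1 of 7 Lcp and 0 of 3 Ccp84A genes had a mean of 1 or more, against 24 of 67 Cpr genes. Changes in most genes of these 3 families could therefore hardly be seen. Twdlalpha had 2.15, 1.94 and 2.18 in F1 males of methylphenidate-exposed mothers and 1.87, 1.61 and 1.81 in F1 males of sucrose-exposed parents, against 2.05, 2.32 and 2.54 in methylphenidate-fed males and 2.56, 2.17 and 2.52 in sucrose-fed males. F1 males of sucrose-exposed parents lay below the arrays of the other groups, and the rest overlapped. Twdlalpha fell by 0.65 ± 0.13 in the sucrose pair (adjusted p = 0.00337, limma) and was at -0.21 in the methylphenidate pair (adjusted p = 0.373). TwdlP, a second Tweedle gene, fell by 0.37 in the sucrose pair (adjusted p = 0.0322), and Cpr12A, near the floor, fell by 0.28 (adjusted p = 0.0324). In the methylphenidate pair Cpr56F fell by 0.49 (adjusted p = 0.0134) beside Cpr67Fb, which is described with the drug effects. No gene was lower in both pairs.

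Cpr65Au, the gene with the next highest signal after Cpr49Ae, did not pass in either pair. It had 7.54, 7.45 and 7.57 in F1 males of methylphenidate-exposed mothers and 7.56, 7.48 and 7.32 in F1 males of sucrose-exposed parents, against 7.31, 7.33 and 7.29 in methylphenidate-fed males and 7.48, 7.46 and 7.52 in sucrose-fed males. The 12 arrays spanned less than 0.3 log2 units. Its change was 0.21 in the methylphenidate pair (95% interval 0.05 to 0.36; adjusted p = 0.110) and -0.03 in the sucrose pair (-0.19 to 0.13; adjusted p = 0.834). Cpr66D, another protein of the corneal lens, was at 0.17 in the methylphenidate pair (adjusted p = 0.516) and -0.05 in the sucrose pair (adjusted p = 0.877).

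Cuticle protein genes lie in runs on the chromosomes. They were chosen by symbol and not by coordinates, but the Ccp84A genes were named for a cluster, so symbol and position are not wholly separate. With at most 2 other protein-coding genes between neighbours in the RefSeq annotation, 73 of the 107 fell in 15 runs of 3 or more genes, 3 pairs held another 6, and 28 lay alone. In the run Cpr49Aa to Cpr49Ag, 3 of 7 genes were higher in both comparisons of F1 with exposed males, and in the run Cpr47Ea to Cpr47Eg 2 of 7. Cpr62Bb and Cpr62Bc of a run of 3, and both genes of the Cpr97E pair, were higher in both. The other members of the Cpr49A and Cpr47E runs were at the floor, except Cpr49Ag, which did not pass, and Cpr47Ef.

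The longest run held 13 Tweedle genes, with 10 at the floor, none higher and TwdlP lower in the sucrose pair. The run Lcp65Ag3 to Lcp65Ac held 8 genes, with 7 at the floor and none higher; its bright member is Cpr65Au. The Cpr64A, Cpr78C and Edg84A to Ccp84Ac runs, of 4 genes each, had none higher.

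The drug comparison in exposed males asks how a day of methylphenidate affects these genes. Of the 107, 1 was higher and 0 were lower in methylphenidate-fed than in sucrose-fed males. Over all probe sets, 3.35% passed, 2.38% higher and 0.97% lower, so the members' share was not above the background. At an unadjusted p under 0.05 there were 13 of the 107 members and 2872 of all 18769 probe sets. The median log2 change was -0.048, against -0.015 over all probe sets, and the range was -0.98 to 1.70.

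The gene that rose was Cpr67Fb, a CPR gene. It had 4.92, 5.58 and 5.74 in methylphenidate-fed males, against 3.96, 3.46 and 3.72 in sucrose-fed males. In F1 males of methylphenidate-exposed mothers it had 3.29, 3.05 and 2.93, against 3.55, 3.32 and 4.68 in F1 males of sucrose-exposed parents. Each methylphenidate-fed array was above each of the 9 others, and replicate 3 of the F1 males of sucrose-exposed parents stood above the rest of its group.

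Cpr67Fb rose by 1.70 ± 0.29 in exposed males (SE; 3.25-fold; adjusted p = 0.00284, limma). In F1 males the maternal effect was -0.76 ± 0.29, which did not pass (adjusted p = 0.556), and without replicate 3 of the F1 males of sucrose-exposed parents it was -0.35 for Cpr67Fb (adjusted p = 0.900). The F1 effect minus the effect in exposed males was -2.46 ± 0.40 (adjusted p = 0.00415). Between generations Cpr67Fb fell by 2.32 ± 0.29 in the methylphenidate pair (adjusted p = 0.000135) and was at 0.14 in the sucrose pair. These contrasts share groups, so they are not separate evidence. Its neighbours Cpr67Fa1 and Cpr67Fa2 were at the floor.

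The remaining genes with the smallest p in exposed males had lower signals in methylphenidate-fed males and did not pass. Cpr12A was at -0.31 (adjusted p = 0.0634, limma), Cpr49Ab at -0.36 ± 0.10 (adjusted p = 0.0710), Cpr62Bc at -0.60 (adjusted p = 0.185) and Cpr51A at -0.28 (adjusted p = 0.193). Cpr49Ab had 4.09, 4.36 and 4.31 in methylphenidate-fed males, against 4.54, 4.73 and 4.56 in sucrose-fed males, with no overlap. For Cpr92F, with methylphenidate replicate 3 far below the rest, the 95% interval of the drug effect ran from -2.26 to 0.31.

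**Figure D3:**
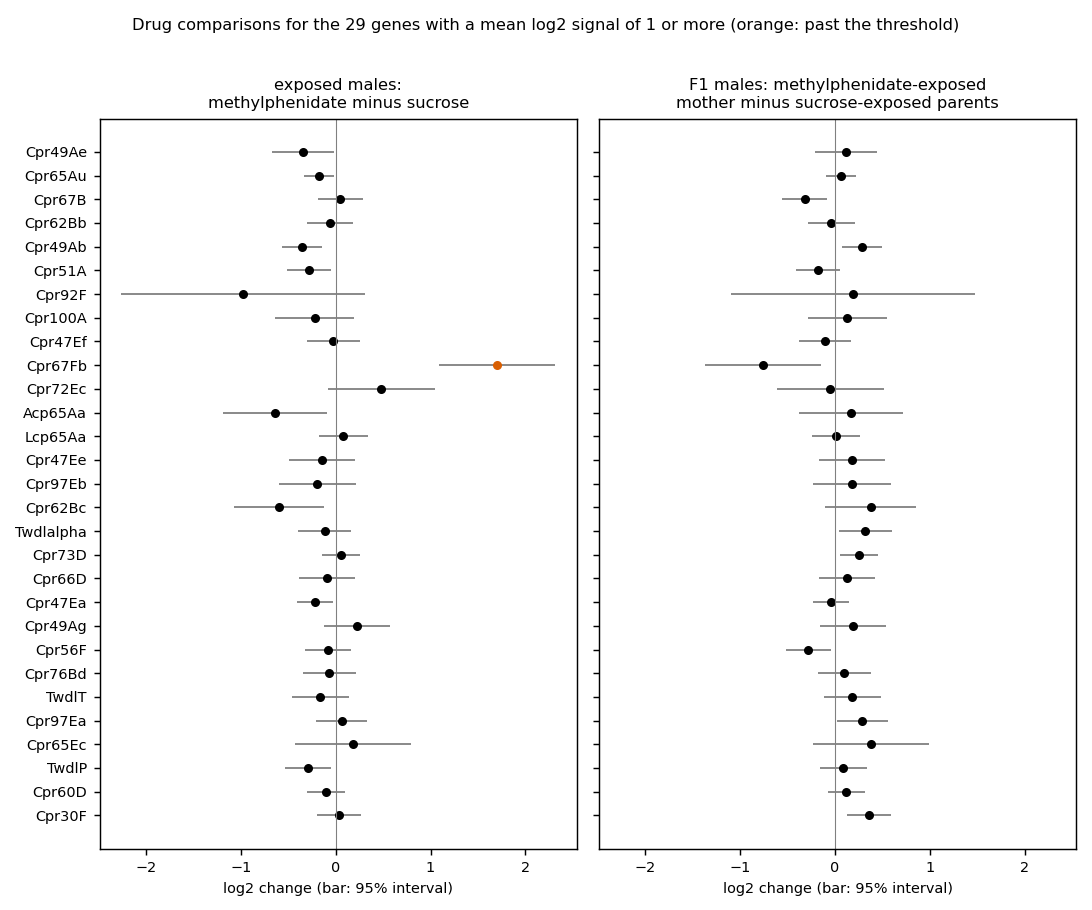
Log2 change with methylphenidate in exposed males (left) and with a methylphenidate-exposed mother in F1 males (right), for the 29 genes with a mean log2 signal of 1 or more, ordered by signal. Points are the fitted change and bars its 95% interval. Cpr67Fb in exposed males, at 1.70, is the point in orange that passed the threshold; none passed in F1 males.

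Between F1 groups, the question is whether sons of methylphenidate-exposed mothers differ from sons of sucrose-exposed parents. None of the 107 genes passed in limma, with 0.00533% of all probe sets passing. At an unadjusted p under 0.05 were 13 of the 107 members and 1513 of all 18769 probe sets. The smallest adjusted p was 0.442, for Cpr30F at 0.36 ± 0.11. Next came Cpr49Ab at 0.29 (adjusted p = 0.531), Cpr67B at -0.32 (adjusted p = 0.531), Cpr73D at 0.25 (adjusted p = 0.549) and Cpr67Fb. The median log2 change was 0.0083, against 0.026 over all probe sets, and the range was -0.76 to 0.38. For Acp65Aa the F1 difference was 0.17, with a 95% interval of -0.38 to 0.71.

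The drug effect differed between generations for 2 of the 107 genes, where 2.09% of all probe sets passed, so the members' share was not above the background. One was Cpr67Fb, above. The other was Cpr49Ab, which had 5.28, 5.18 and 5.36 in F1 males of methylphenidate-exposed mothers, against 4.97, 5.15 and 4.83 in F1 males of sucrose-exposed parents. With the values of exposed males given above, the groups did not overlap in either generation, and the sign was opposite. The F1 effect minus the exposed-male effect was 0.64 ± 0.14 (adjusted p = 0.0297, limma), though neither effect passed by itself. Cpr62Bc at 0.97 (adjusted p = 0.144), Cpr12A at 0.35 (adjusted p = 0.170) and Cpr78Cc at 0.39 (adjusted p = 0.209) came next and did not pass.

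Genes with related roles were read from lists, and their members were not limited to genes used in cuticle. The counts of each list stand beside the shares over all probe sets. These were 4.76% higher and 3.76% lower in the methylphenidate pair, and 6.33% higher and 14.2% lower in the sucrose pair. Of 33 measured genes of chitin synthesis and assembly, 11 were higher and 1 lower in the methylphenidate pair, and 10 higher and 2 lower in the sucrose pair. The chitin deacetylase gene serp was higher by 1.25 in the methylphenidate pair and 1.03 in the sucrose pair, and Cht7, of the chitinase family, by 1.25 in the methylphenidate pair and 0.80 in the sucrose pair. The median log2 change of this list was 0.20 in each pair. In exposed males, where 0.97% of all probe sets were lower and 2.38% higher, 4 of the 33 were lower with methylphenidate, and none higher. These were obst-A, coding for a chitin-binding protein, at -0.78 (adjusted p = 0.00149, limma), the chitin synthase gene Chs2 at -0.54, Cht7 at -0.53 and the deacetylase gene Cda4 at -0.45.

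Of 15 other apical matrix genes, 6 were higher in the methylphenidate pair and 8 in the sucrose pair, with none lower. Vajk2 and Vajk3, coding for cuticle proteins outside the families counted here, were higher by 2.13 and 2.19 in the methylphenidate pair and by 1.55 and 1.59 in the sucrose pair. The gene nompA, whose product links sensory cell endings to the cuticle, was higher by 0.55 in the sucrose pair and was at 0.16 in the methylphenidate pair (adjusted p = 0.320). Of 20 tanning and pigmentation genes, 5 were higher in the methylphenidate pair and 4 in the sucrose pair, none lower. Among them were ebony (e), which joins beta-alanine to dopamine in cuticle tanning, at 0.74 in the methylphenidate pair and 0.56 in the sucrose pair. Pu, the first enzyme of pterin cofactor synthesis, was at 0.85 in the methylphenidate pair and 0.45 in the sucrose pair.

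**Figure D4:**
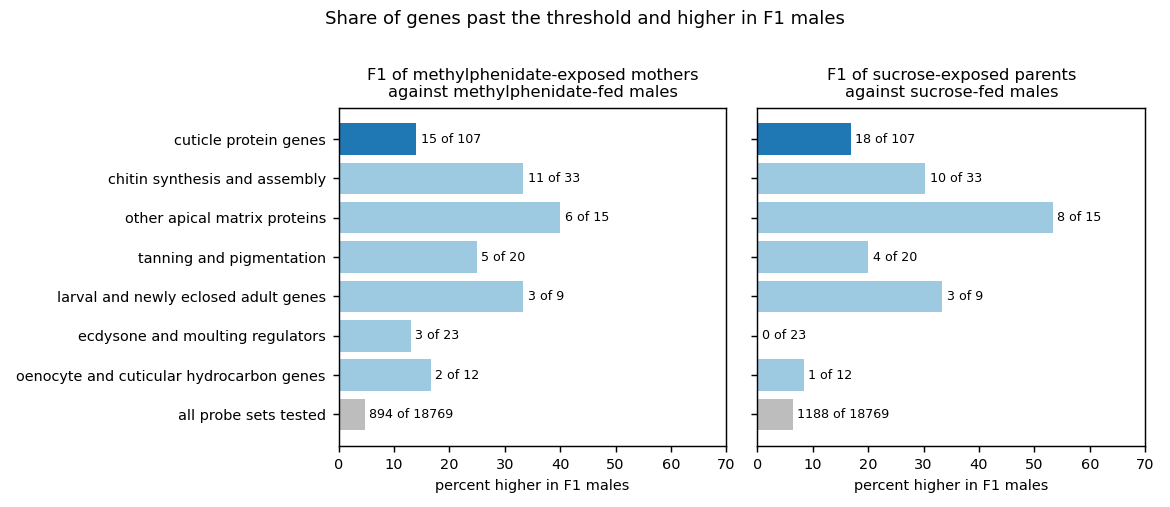
Percent of genes higher in F1 than in exposed males past the threshold (x axis, from 0), for the cuticle protein genes, 6 lists of related genes and all probe sets tested, in the methylphenidate pair (left) and the sucrose pair (right). Counts stand beside the bars. The cuticle protein genes reached 15 of 107 and 18 of 107, against 4.76% and 6.33% of all probe sets.

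Of 23 ecdysone and moulting regulators, 3 were higher and 1 lower in the methylphenidate pair, and 0 higher and 1 lower in the sucrose pair. Hr38, a nuclear receptor known in this fly to be needed for normal Acp65Aa expression, was higher by 0.77 ± 0.10 in the methylphenidate pair (adjusted p = 0.000181, limma) and was at 0.28 ± 0.10 in the sucrose pair (adjusted p = 0.0591). ETH, the ecdysis-triggering hormone gene, was higher by 0.93 in the methylphenidate pair and was at 0.10 in the sucrose pair (adjusted p = 0.673). In exposed males ETH fell by 0.52 with methylphenidate (adjusted p = 0.0409). Kr-h1, a juvenile hormone response gene, was at -0.73 in the methylphenidate pair and -0.47 in the sucrose pair, past the threshold in both.

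Of 9 measured genes active in larvae or newly eclosed adults, 3 were higher in each pair and 6 lay at the floor in all groups, among them the salivary glue genes. The 3 were Fbp2, at 3.60 in the methylphenidate pair and 2.82 in the sucrose pair, Fbp1, at 3.06 in the methylphenidate pair and 2.34 in the sucrose pair, and Lsp2, a larval serum protein gene, at 1.87 in the methylphenidate pair and 1.38 in the sucrose pair. Of 12 oenocyte and hydrocarbon genes, 2 were higher in the methylphenidate pair, and 1 was higher and 2 were lower in the sucrose pair. The counts in the sucrose pair were near the shares over all probe sets, 6.33% higher and 14.2% lower. Between F1 groups none of the genes of these 6 lists passed. The drug effect differed between generations for 2.09% of all probe sets. In the lists it did so for 1 of 33 chitin genes, obst-A, at 0.90. It also did so for 2 of 23 ecdysone and moulting regulators, ETH, at 0.82, and shd, which makes active ecdysone, at 0.80. Of 12 oenocyte and hydrocarbon genes 1 passed, FarO, at -0.53.

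Some markers of epidermis, the tissue that makes cuticle, and of other tissues also passed. Of 8 epidermal markers, 5 were higher in the methylphenidate pair and 4 in the sucrose pair, and none passed as lower in either. Their summed linear signal was 90.8 to 99.4 in F1 males of methylphenidate-exposed mothers and 84.5 to 93.9 in F1 males of sucrose-exposed parents, against 61.9 to 73.3 in methylphenidate-fed males and 70.7 to 74.4 in sucrose-fed males. The epidermal markers serp, verm, kkv, knk, pio and grh, the tracheal markers Gasp and obst-A and the fat body markers Fbp1 and Lsp2 are also in the lists above. In the methylphenidate pair, 4 of 6 muscle, 4 of 7 fat body, 3 of 6 gut, 6 of 9 accessory gland, 2 of 5 tracheal and 2 of 7 hemocyte markers were higher, and 1 fat body marker was lower. In the sucrose pair, 3 of 6 muscle, 4 of 7 fat body, 4 of 6 gut, 5 of 9 accessory gland, 1 of 5 tracheal and 0 of 7 hemocyte markers were higher, and 1 accessory gland marker was lower. Over all probe sets, 4.76% were higher and 3.76% lower in the methylphenidate pair, and 6.33% higher and 14.2% lower in the sucrose pair.

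Markers of testis were lower or did not pass. In the sucrose pair, where 14.2% of all probe sets were lower, 5 of the 10 testis markers were lower. None of the testis markers passed in the methylphenidate pair. Their summed linear signal was 978 to 1051 in F1 males of methylphenidate-exposed mothers and 948 to 1040 in F1 males of sucrose-exposed parents, against 1072 to 1192 in methylphenidate-fed males and 1298 to 1408 in sucrose-fed males. Of 5 neuronal markers, 1 was lower in the sucrose pair, too few to set apart from the 14.2% over all probe sets. At the floor in all groups were Yp1, of 7 fat body markers, and He, of 7 hemocyte markers. So were bam and aly, of 10 testis markers, and btl and Osi20, of 5 tracheal markers. The part of these tissue differences in the changes of the cuticle protein genes was not tested. With the GAPDH measure as a covariate, 9 rather than 18 members were higher in the sucrose pair, and 14 rather than 15 in the methylphenidate pair. Over all probe sets, 695 rather than 1188 were then higher in the sucrose pair, and 849 rather than 894 in the methylphenidate pair.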

How the data were processed

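The authors deposited a table of log2 signals for each array, made with RMA, affy and limma according to the submitters' processing notes; their versions and settings were not given in the sources used here. Log base 2 was checked on the hybridization controls, whose signal rose by 6.22 between BioB and Cre, against a nominal log2 ratio of 6.06. After removal of 183 controls, 18769 of 18952 probe sets were tested without a filter on dim signals. The platform annotation gave 13647 of them 1 gene, 402 several and 4720 none here; 13544 symbols were updated through the RefSeq table of the Release 6 assembly, used only for names and neighbour order. Probe sets shared by several genes were not assigned to a single gene and were kept out of the member counts. No reference sequences were used here.

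One limma 3.58.1 fit (R 4.3.3; lmFit, eBayes) of 4 group means gave 5 contrasts, two-sided. Array measures were compared by exact permutation tests, whose smallest p for 3 against 3 is 0.1. Same-numbered replicates deviated together with r over 0.1 in 2 of 18 pairs, so numbers did not pair the samples. Genes under a mean of 0.5 were called at the floor.

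Named were the 12 brightest members, the brightest of each family, and per contrast up to 12 members past the threshold in each direction, or the 5 smallest p where fewer than 5 passed; up to 3 genes per contrast of each other list were named by smallest p. Cpr65Au, Cpr66D, Lcp65Aa, Hr38 in the sucrose pair and the members without a change were shown for contrast after their values were seen. Members and lists were chosen with earlier results of these data known. Alternatives were the groups of a contrast alone, a replicate block, a filter on the dimmest 30% or 50%, quantile normalization, median centring, trend and robust settings, array weights, averaging a gene's probe sets, a GAPDH covariate, and each array left out in turn. The fit was tested on simulated data. Plots were drawn with matplotlib 3.10.9.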

Additional observations from a re-analysis of the deposited data

Results flagged for a closer look

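The drug effect on 2 cuticle protein genes differed between F1 and exposed males in a test of the difference itself; 2.09% of all probe sets passed that test, and 2 of 107 is not above that share. For Cpr67Fb the F1 effect minus the exposed-male effect was -2.46 on the log2 scale, and leaving out any array or changing any setting gave between -2.74 and -2.05, all past the threshold. For Cpr49Ab the difference was 0.64, between 0.56 and 0.72 over the alternatives, and it missed the threshold in 7 of 21. Groups of 3 arrays are too small for a test of single outlying arrays.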

How the results depend on the processing

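None of the 951 alternative values of named members reversed its direction, 895 kept their side of the threshold, 47 lost it and 9 gained it; Cpr72Ec, Cpr12A and TwdlP in the sucrose pair were lost most often. In exposed males 1 member passed, and 2 with the groups of the contrast alone, without the dimmest 50% of probe sets, with quantile normalization, median centring, trend and robust settings or array weights; leaving out arrays gave 1 to 3, the 3 without replicate 2 of the methylphenidate-fed males. In the sucrose pair 21 members passed, 12 with the GAPDH covariate, and 13 to 21 with an array left out, the 13 without sucrose-fed replicate 1 or 3 and 14 without replicate 2 of the F1 males of sucrose-exposed parents. For the difference of drug effects 2 passed, 1 with the GAPDH covariate and 1 to 2 with an array left out; Cpr49Ab was then the one lost. Counts in the methylphenidate pair and between F1 groups stayed within 1.5 times their value in each alternative run.

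Medians of the members moved when the dimmest probe sets, and with them most members, were left out, and with single arrays left out. Without the dimmest 30% the median was 0.070 between F1 groups, 0.12 in the methylphenidate pair, 0.069 in the sucrose pair and 0.15 for the difference. Without the dimmest 50%, which left 22 members, it was -0.13 in exposed males, 0.12 between F1 groups, 0.40 in the methylphenidate pair, 0.43 in the sucrose pair and 0.21 for the difference. With median centring it was -0.056 between F1 groups, 0.10 in the sucrose pair and -0.013 for the difference. With an array left out it ran from -0.0071 (without replicate 3 of the F1 males of sucrose-exposed parents) to 0.052 (without replicate 2) between F1 groups, from 0.011 (without replicate 2) to 0.059 (without replicate 3 of the same group) in the sucrose pair, from 0.049 to 0.084 in the methylphenidate pair, from -0.057 to -0.024 (without methylphenidate-fed replicate 3) in exposed males and from 0.033 to 0.071 (without replicate 3 of the F1 males of methylphenidate-exposed mothers) for the difference. Over all probe sets in the sucrose pair, 1188 were higher and 2666 lower, against 1740 and 1779 with median centring and 1557 and 2091 with quantile normalization. With these settings 20 and 18 members were higher in that pair.

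With a replicate block 19 members passed in the sucrose pair, 17 in the methylphenidate pair, 1 in exposed males, 0 between F1 groups and 2 for the difference, though same-numbered samples share only a number. Over all probe sets, the GAPDH covariate left 203 rather than 629 calls in exposed males and 209 rather than 393 for the difference. In the sucrose pair it left 2604 rather than 3854. The groups of the contrast alone were not run for the difference, which needs all 4 groups. With 66.4% of the members at the floor, signal over background limits what could be seen.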

Other observations

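Several cuticle protein genes have probe sets that match more than 1 gene and were kept out of the counts. The 6 such probe sets cover Ccp84Aa with Ccp84Ab, Cpr65Ax1 with Cpr65Ax2, Cpr67Fa1 with Cpr67Fa2, Lcp65Ag1 with Lcp65Ag2, and Obp57d with Cpr57A on 2 probe sets. None passed the threshold in the comparisons made. One of the Obp57d and Cpr57A probe sets averaged 2.73, while the other averaged -0.02, and the signal cannot be assigned to either gene.

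The second probe sets of Cpr47Ef and Lcp65Aa averaged 0.23 and 0.09, at the floor, while those used averaged 4.20 and 2.82. The probe sets of each gene thus disagree, and values of these genes rest on 1 probe set.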
